A study of Mus musculus with 24 samples.

Results

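The interaction of fat depot and siRNA at day 3 of differentiation (d3) was examined: whether silencing of the lincRNA H19 changed a transcript by a different amount in cells from brown than from visceral white fat. It rests on 12 of the 24 libraries of the series, 3 in each of 4 groups, and was tested for the 13762 of 49452 listed genes that reached an FPKM (sequenced fragments relative to transcript length and library size) of 1 in at least 3 of the 12 libraries. Primary adipocyte precursors came from the stromal-vascular fraction of interscapular brown adipose tissue (BAT) or of visceral perigonadal white adipose tissue (vWAT) of young adult male C57BL/6 mice, for which the labels give a strain and no genotype, and the cells of both depots were transfected by nucleofection with 100 nmol/l of a non-targeting siRNA (siCtrl) or of an siRNA against H19 (siH19) and then differentiated. The media were not the same. Induction medium held insulin, dexamethasone and rosiglitazone in both depots and indomethacin and triiodothyronine for BAT, while IBMX is given for both depots in the labels and for white cells alone in the methods. The medium that followed induction held rosiglitazone for vWAT and triiodothyronine for BAT, so that depot and medium cannot be told apart. The libraries of the 2 depots also carry different series names in the labels, and a library series cannot be told apart from depot either. BAT of several mice could be pooled for a preparation, nothing in the labels says that the replicates of a group came from separate mice, and the p-values therefore measure the spread between these libraries, which may be technical.

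Brown adipocytes burn fatty acids in dense mitochondria and release the energy as heat through UCP1, whereas visceral white adipocytes mainly store triglyceride. Both arise from fibroblast-like precursors under PPARG and C/EBP transcription factors, which switch on lipid storage while genes of matrix, contraction and proliferation decline. PGC1A, encoded by Ppargc1a, is a coactivator that drives mitochondrial biogenesis in brown cells. H19 is a maternally expressed, imprinted long non-coding RNA.

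For each gene, the siH19 difference is the mean of siH19 minus the mean of siCtrl in one depot on the log2(FPKM + 1) scale, and the interaction is the BAT difference minus the vWAT difference. A positive interaction is written as higher, and a negative one as lower, in BAT relative to vWAT. A gene counted as called when its p, adjusted by Benjamini-Hochberg over all tested genes, was under 0.05, and each error of a difference is a standard error (SE, n = 3 libraries per group). The log2(FPKM + 1) scale understates the change of genes with few FPKM. Counts of called members of a gene list are to be read against 7.02% of all tested genes higher and 3.52% lower.

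Replicates were alike, while the number of genes detected differed by depot. Between 12311 and 12558 genes per BAT library and 12987 and 13125 per vWAT library reached 1 FPKM. Genes with a median of at least 5 FPKM over the 12 libraries were listed at 0 in 14 to 35 cases per BAT library and 8 to 14 per vWAT library. Pearson's r across genes between replicates was 0.975 to 0.979 with at most 0.0053% of values above 0 identical. The 10 most abundant genes held 14.01% to 14.99% of all FPKM. The number of fragments is unknown, and relative depth, read from the steps between low values, lay between 0.84 and 0.96 in BAT and between 1.04 and 1.18 in vWAT. The depot labels were met by their marker genes in every library. Lhx8, a developmental transcription factor of brown fat, was at 12.8, 12.3 and 10.9 FPKM in the BAT siCtrl libraries and at no more than 0.0652 in any vWAT library. Tcf21, a transcription factor of visceral fat stroma, was at 35.3, 36.7 and 37.5 FPKM in the vWAT siCtrl libraries and at no more than 0.177 in any BAT library.

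H19 itself (ENSMUSG00000000031, chr7:142575529-142578143 on the minus strand of GRCm38) was reduced by siH19 in every library of both depots. In BAT cells it was at 99.7, 86.4 and 83.2 FPKM with siCtrl and at 12.04, 12.1 and 16.9 FPKM with siH19, so that the mean fell from 89.8 ± 8.76 to 13.7 ± 2.79 FPKM (SD, n = 3) and 15.3% remained. In vWAT cells it was at 8.67, 8.19 and 8.896 FPKM with siCtrl and at 0.327, 0.291 and 0.966 FPKM with siH19, and 6.15% remained. The groups did not overlap in either depot, and vWAT cells had less H19 before silencing than BAT cells kept after it. The siH19 difference was -2.64 (SE 0.17, adjusted p = 2.9e-05) in BAT and -2.68 (SE 0.17, adjusted p = 0.00018) in vWAT, and the interaction was 0.04 (95% interval -0.49 to 0.56), with an exact two-sided permutation p of 0.945 where 0.005 was the smallest possible. This near-equality is bound to the scale. With 0.1 in place of 1 FPKM added before the logarithm, the interaction was 1.23 (adjusted p = 0.11), and with 5 FPKM added it was -1.05 (adjusted p = 0.0023). All vWAT siH19 levels were under 1 FPKM.

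The siH19 oligonucleotide is shown because the whole comparison rests on it. The labels of the knockdown libraries carry a 3 after siH19, which matches one of the study's siRNAs, and the methods also list one without a number, so that both guide strands are given, 5′ to 3′, with the seed (bases 2 to 8) in capitals.
siH19#3 guide: uGGUGUUCaagaaggcuggat
siH19 guide: uCUUGAUUcagaacgagacgg
The 19-base core of each matched 5 of the 7 annotated H19 transcripts without a mismatch. In H19-202, of 2286 bases and 5 exons, the siH19#3 site took bases 1439 to 1457 and crossed the junction of exons 2 and 3, between chr7:142576524-142576624 with the intron included. The site of the unnumbered siRNA took bases 1630 to 1648 in exon 4, at chr7:142576255-142576273. Both sites lie in exons of a non-coding RNA. The seeds differ, and matches of either seed in other transcripts were not tested.

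At d3, 1451 genes differed between the depots in their response to siH19 (10.5% of those tested). Of these, 966 were higher (7.02%) and 485 lower (3.52%) in BAT relative to vWAT, and 3526 genes had an unadjusted p under 0.05. This split depends on scaling: under median-of-ratios scaling 635 genes were higher and 757 lower, and under quantile normalization 717 and 558, while the median of all genes moved by about 0.06. Within single depots at d3, 2833 genes were called in BAT (20.6%; 1899 higher and 934 lower with siH19) and 6 in vWAT (0.0436%; 1191 at an unadjusted p under 0.05; 1 to 3 genes without any one of 7 of the 12 libraries). The interaction and the difference within each depot share their libraries, so their overlap is not given. The median size of the siH19 difference over all tested genes was 0.149 in BAT and 0.0766 in vWAT, while the median SD within groups was 0.091 to 0.107. The 2 siRNA groups did not overlap for 35.3% of all tested genes in BAT and for 15.9% in vWAT. Across all tested genes, the BAT and vWAT differences, which share no library, had a Pearson correlation of 0.05 and a Spearman rank correlation of 0.02, given as a description. The number of interaction calls fell to 889 without BAT siCtrl replicate 2, to 929 without vWAT siH19 replicate 1 and to 935 without vWAT siCtrl replicate 3.

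**Figure D1:**
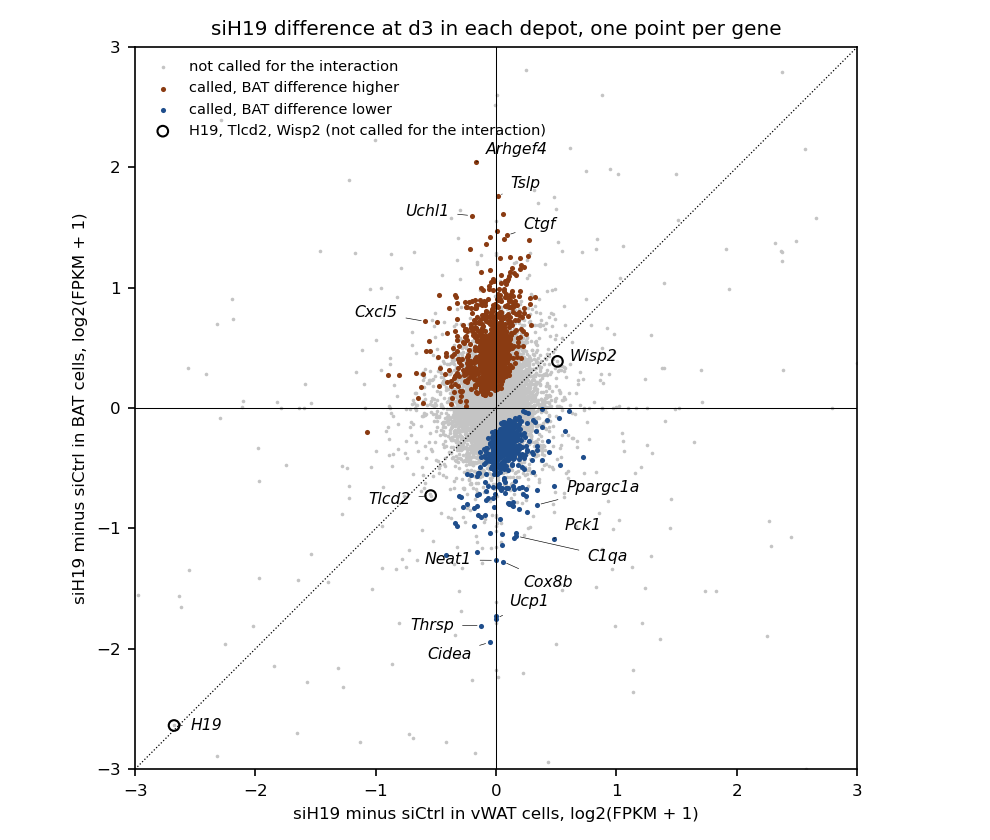
Each point is a gene at d3, with its siH19 minus siCtrl difference in vWAT cells on the x axis and in BAT cells on the y axis, both in log2(FPKM + 1); colours mark genes called for the interaction, circles mark H19, Tlcd2 and Wisp2, and 44 genes lie outside the axes. Called genes spread mainly along the BAT axis, with Cidea, Thrsp and Ucp1 at the bottom and Arhgef4 at the top. The calls come from these same differences, and over all tested genes the median size of the difference was 0.149 in BAT and 0.0766 in vWAT. H19 lies on the dotted line of equal differences.

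The brown thermogenic genes led the list of genes that were lower in BAT relative to vWAT. Ucp1 (chr8:83290352-83298452), the uncoupling protein of brown fat, was at 8.84, 11.2 and 16.3 FPKM in the BAT siCtrl libraries and at 1.996, 2.93 and 3.63 in BAT siH19, and it is listed at 0 in all 6 vWAT libraries. The BAT groups did not overlap and no vWAT fold can be given; the interaction was -1.75 (SE 0.28, adjusted p = 0.0042), which here is the BAT difference alone. Cidea, a lipid droplet protein that marks brown fat, was at 14.2, 19.5 and 21.6 FPKM in BAT siCtrl and 3.87, 4.48 and 3.63 FPKM in BAT siH19, against no more than 0.120 FPKM in any vWAT library. Its interaction, -1.89 (SE 0.19, adjusted p = 0.0014), was the most negative of all named genes, and it too lay at or near 0 in vWAT.

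Genes that vWAT cells did express give a comparison on both sides. Cox8b, the muscle and brown fat isoform of a cytochrome c oxidase subunit, was at 48.9, 60.6 and 71.7 FPKM in BAT siCtrl, 19.3, 27.9 and 25.9 in BAT siH19, 14.1, 17.2 and 11.9 in vWAT siCtrl and 15.96, 15.7 and 13.1 in vWAT siH19. It fell in BAT without overlap and its vWAT groups overlapped, with an interaction of -1.33 (SE 0.25, adjusted p = 0.0084). Ppargc1a (chr5:51454250-51567726) was at 13.1, 15.8 and 11.6 FPKM in BAT siCtrl, 6.59, 8.37 and 6.88 in BAT siH19, 1.87, 1.68 and 2.55 in vWAT siCtrl and 3.09, 3.52 and 1.99 in vWAT siH19. It was lower in all BAT siH19 libraries than in any BAT siCtrl library, its vWAT groups overlapped, and its interaction was -1.15 (SE 0.24, adjusted p = 0.015). Elovl3, a fatty acid elongase of brown fat, had mean levels of 470.0 and 292 FPKM in BAT siCtrl and siH19 and of 124 and 128 FPKM in vWAT, with an interaction of -0.73 (SE 0.09, adjusted p = 0.0019). Nat8l, the mitochondrial enzyme that makes N-acetylaspartate, had an interaction of -1.12 (SE 0.18, adjusted p = 0.0045), and Cox7a1, another tissue-specific oxidase subunit, one of -0.71 (SE 0.12, adjusted p = 0.0062).

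The list of BAT effector and identity genes had 24 of 30 members tested, of which 13 were lower (9 to 13 without single libraries) and 1, Lhx8, was higher. Lhx8 had an interaction of 0.49 (SE 0.11, adjusted p = 0.021), a call that was lost without BAT siH19 replicate 1 or vWAT siCtrl replicate 3. The list had a median interaction of -0.48, against 0.06 over all tested genes, and median siH19 differences of -0.42 in BAT and 0.03 in vWAT. Neat1, the long non-coding RNA that scaffolds nuclear paraspeckles, was at 202, 257 and 282 FPKM in BAT siCtrl, 88.5, 103 and 113 in BAT siH19, 289.6, 332 and 286 in vWAT siCtrl and 284, 324 and 297 in vWAT siH19. Its BAT groups were apart and its vWAT groups overlapped, and its interaction was -1.26 (SE 0.18, adjusted p = 0.0027). Tmem45b, a transmembrane protein, fell in BAT from 96.4 to 43.4 FPKM and had group means of 4.57 and 4.74 FPKM in vWAT, with an interaction of -1.19 (SE 0.19, adjusted p = 0.0046). Dio2, the deiodinase that activates thyroid hormone in brown fat, was not called. It was at 34.4, 16.1 and 6.62 FPKM in BAT siCtrl and 5.84, 21.3 and 31.99 FPKM in BAT siH19, a spread between replicates that leaves its interaction at -0.31 with a 95% interval of -3.22 to 2.60.

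**Figure D2:**
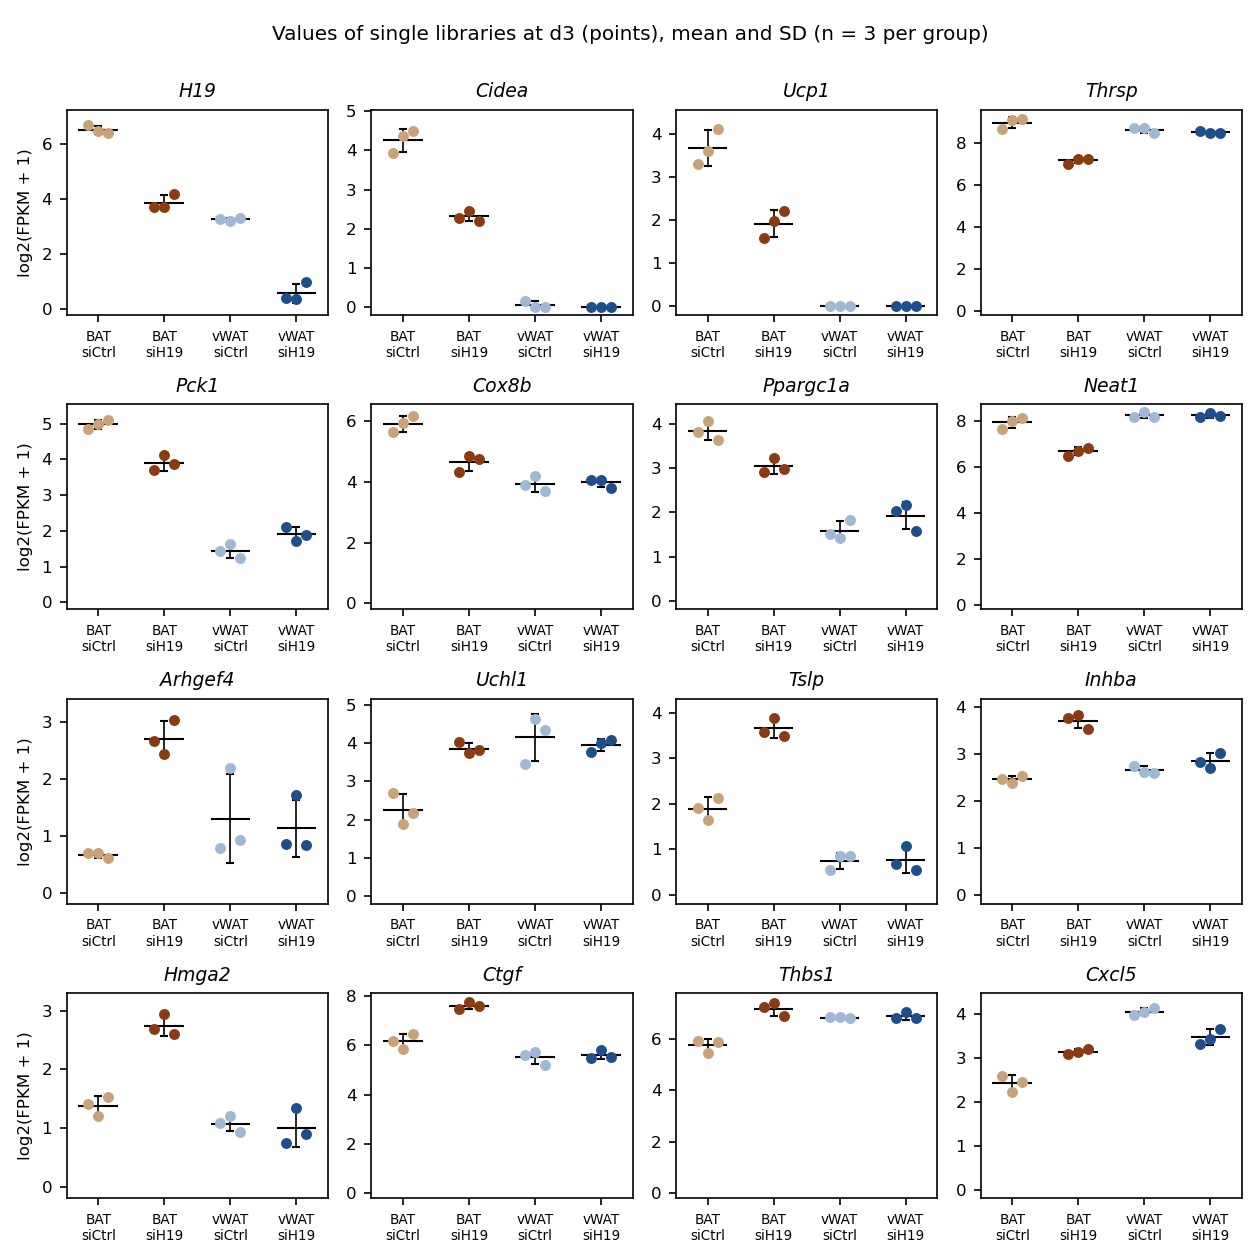
Points are single libraries at d3 on log2(FPKM + 1) axes that start near 0, by depot and siRNA, with the mean and SD of 3 libraries per group, for H19 and 15 of the genes with a called interaction. The BAT siH19 libraries of all 15 lie clear of the BAT siCtrl libraries, while Ucp1 and Cidea lie at or near 0 in vWAT and Arhgef4 and Uchl1 show wide spread in vWAT.

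Lipid-making genes were the list with the largest negative BAT median. Thrsp (chr7:97412938-97417730), a nuclear protein of hormone-responsive lipogenesis, was at 411, 546 and 567 FPKM in BAT siCtrl, 128, 151 and 151 in BAT siH19, 414, 419.6 and 354 in vWAT siCtrl and 382, 354 and 352 in vWAT siH19. Its BAT level fell without overlap while its vWAT groups overlapped, although both depots started from high levels, and the interaction was -1.68 (SE 0.17, adjusted p = 0.0014). Fasn, the fatty acid synthase, was at 704, 708 and 683 FPKM in BAT siCtrl, 326, 308 and 267 in BAT siH19, 407, 420.2 and 394 in vWAT siCtrl and 328, 296 and 290.2 in vWAT siH19. Here the groups did not overlap in either depot, the vWAT difference was -0.42 (SE 0.07, adjusted p = 0.095) and the interaction -0.80 (SE 0.10, adjusted p = 0.0017). Of the 17 tested members of the de novo lipogenesis list, 12 were lower and 0 higher, with median differences of -0.74 in BAT and -0.12 in vWAT, where 16 of the 17 were below 0. Acacb, the mitochondrial acetyl-CoA carboxylase, had an interaction of -0.80 (SE 0.11, adjusted p = 0.0027). Acss2, which makes acetyl-CoA from acetate, had one of -0.61 (SE 0.11, adjusted p = 0.006), and Mlxipl, the carbohydrate-responsive transcription factor ChREBP, one of -0.72 (SE 0.10, adjusted p = 0.0027).

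Genes of triglyceride synthesis, lipolysis and the lipid droplet were lower in smaller numbers. Pck1, the cytosolic enzyme that feeds glyceroneogenesis, was at 27.9, 30.7 and 33.2 FPKM in BAT siCtrl, 12.01, 16.4 and 13.5 in BAT siH19, 1.69, 2.07 and 1.36 in vWAT siCtrl and 3.33, 2.31 and 2.67 in vWAT siH19. It fell in BAT and was higher in each vWAT siH19 library than in any vWAT siCtrl library, so that the groups were apart in opposite directions, but the vWAT difference of 0.48 (SE 0.14, adjusted p = 0.35) was not called; the interaction was -1.56 (SE 0.20, adjusted p = 0.0019). Of 14 tested genes of triglyceride synthesis, 6 were lower and 1 higher, and of 19 genes of lipolysis and the lipid droplet, 9 were lower (5 under quantile normalization) and 0 higher. Plin5, which ties droplets to mitochondria, had an interaction of -0.78 (SE 0.13, adjusted p = 0.0047), and G0s2, an inhibitor of the triglyceride lipase ATGL, one of -0.48 (SE 0.05, adjusted p = 0.0014). Slc2a4, the insulin-dependent glucose transporter, was at means of 87.2 and 48.8 FPKM in BAT siCtrl and siH19 and of 23.5 and 23.1 FPKM in vWAT, with an interaction of -0.81 (SE 0.17, adjusted p = 0.015). Slc2a1, the basal glucose transporter, went the other way, at means of 13.5 and 18.2 FPKM in BAT and of 22.8 and 18.6 FPKM in vWAT, with an interaction of 0.69 (SE 0.13, adjusted p = 0.0094). Of 27 genes of glycolysis and glycogen, 2 were higher, near the share of 7.02% over all tested genes. In that list 5 were lower (9 lower under median-of-ratios scaling), against 3.52% of all tested genes. Of 22 genes of cholesterol synthesis and uptake, 5 were lower (3 without BAT siCtrl replicate 2 or 3, or vWAT siCtrl replicate 2 or 3).

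The common adipogenic regulators and markers had 16 of 29 tested members lower (10 under quantile normalization) and 1, Cebpd, higher, with a median interaction of -0.26. Cebpd, an early adipogenic factor, had an interaction of 0.43 (SE 0.10, adjusted p = 0.021), and this call was lost without BAT siCtrl replicate 2, vWAT siCtrl replicate 2 or 3, or vWAT siH19 replicate 1. Among the markers the study followed, Fabp4, the adipocyte fatty acid carrier, had an interaction of -0.26 (SE 0.05, adjusted p = 0.011), and Adipoq, the adipokine adiponectin, one of -0.33 (SE 0.07, adjusted p = 0.019). The call of Adipoq was lost without BAT siCtrl replicate 2 or vWAT siCtrl replicate 3. Pparg, the master regulator, and its partner Cebpa were not called, with interactions of -0.24 (SE 0.10, adjusted p = 0.17) and -0.17 (SE 0.06, adjusted p = 0.09), and Cebpb, an early factor, had one of 0.12 (SE 0.09, adjusted p = 0.47). Car3, a carbonic anhydrase abundant in fat cells, was at means of 1349 and 815 FPKM in BAT siCtrl and siH19 and of 3963 and 4697 FPKM in vWAT, with an interaction of -0.97 (SE 0.08, adjusted p = 0.0011).

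Genes of mitochondrial oxidation were lower in BAT relative to vWAT by small amounts but in large shares. Of 24 tested genes of the TCA cycle and pyruvate entry, 20 were lower. Of 29 genes of fatty acid oxidation, 17 were lower (13 to 19 without single libraries) and 1 was higher. This one was Cpt1a, the outer membrane carnitine palmitoyltransferase, with an interaction of 0.36 (SE 0.09, adjusted p = 0.031), named after its values were seen, and it was not called under either other scaling or without any one of 7 of the 12 libraries. Of 37 nuclear-encoded subunits of respiratory complex I, 27 were lower, with a median interaction of -0.30 made of -0.23 in BAT and 0.08 in vWAT, and 32 of the 37 were above 0 in vWAT. The 37 tested nuclear subunits of complexes III to V had 25 lower, a median interaction of -0.29 and 33 members above 0 in vWAT. The TCA list and both lists of respiratory subunits had 0 members higher and 67.6% to 83.3% lower, against 3.52% lower over all tested genes.

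Single members show how small the changes are. Ogdh, the oxoglutarate dehydrogenase of the TCA cycle, was at 286, 296 and 280.3 FPKM in BAT siCtrl, 211, 199.6 and 197 in BAT siH19, 94.3, 87.95 and 87.6 in vWAT siCtrl and 93.2, 87.5 and 81.4 in vWAT siH19. It fell in BAT without overlap, its vWAT groups overlapped, and its interaction was -0.46 (SE 0.07, adjusted p = 0.0045). Ndufa6, a complex I subunit, had one of -0.48 (SE 0.07, adjusted p = 0.0031), Cyc1, cytochrome c1 of complex III, one of -0.40 (SE 0.07, adjusted p = 0.0048), and Acadm, the medium-chain acyl-CoA dehydrogenase, one of -0.51 (SE 0.07, adjusted p = 0.0027). Ehhadh, a peroxisomal oxidation enzyme, had an interaction of -0.54 (SE 0.09, adjusted p = 0.005). These 5 calls held whichever single library was left out.

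The mitochondrial genome encodes a few core subunits of these complexes. Of its 13 mRNAs, all tested, 1, mt-Atp8, was called lower (and not under quantile normalization or without BAT siCtrl replicate 2, vWAT siCtrl replicate 2 or 3, or vWAT siH19 replicate 1), and their median interaction was -0.12. All listed genes with a mitochondrial (mt-) symbol, whether mRNA or not, together held 6.36% to 6.73% of all FPKM in BAT siCtrl. They held 5.59% to 5.64% in BAT siH19, 3.17% to 3.51% in vWAT siCtrl and 3.06% to 3.57% in vWAT siH19. The groups of this share were apart in BAT and overlapped in vWAT, and the share of the 13 mRNAs alone was not computed. Of 77 proteins of the mitochondrial ribosome, encoded in the nucleus, 15 were lower (28 under median-of-ratios scaling) and 1, Mrpl33, named after its values were seen, was higher, with a median interaction of -0.19. Counts of these lists depend on single libraries. Without BAT siCtrl replicate 2, BAT siH19 replicate 1, vWAT siCtrl replicate 3 or vWAT siH19 replicate 1, 12 or 13 TCA genes, 15 or 16 complex I subunits, 14 or 15 subunits of complexes III to V and 5 to 7 mitochondrial ribosome genes were lower. Leaving out BAT siCtrl replicate 3 gave 13 TCA genes, 16 subunits of complexes III to V and 8 mitochondrial ribosome genes, and leaving out BAT siH19 replicate 2 gave 12 TCA and 9 mitochondrial ribosome genes. The list medians stayed below 0 whichever single library was left out.

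**Figure D3:**
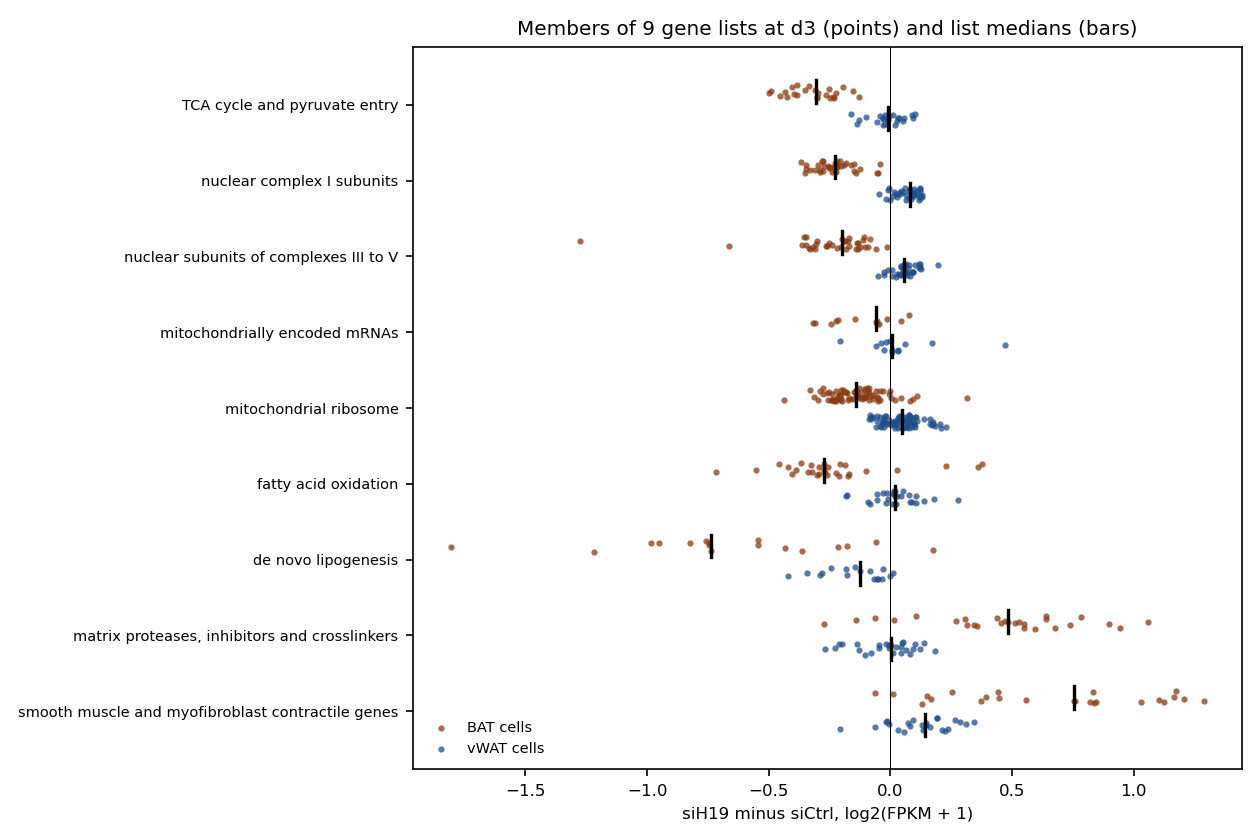
Points are the tested members of 9 gene lists, with the siH19 minus siCtrl difference at d3 on the x axis in log2(FPKM + 1), BAT above vWAT in each pair, and black bars at the list medians. Nuclear subunits of complex I sit left of 0 in BAT (median -0.23) and mostly right of it in vWAT (median 0.08), lipogenic genes have the lowest BAT median of these lists (-0.74), and contractile genes lie right of 0 in BAT with a median of 0.76.

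Genes of precursors, matrix, contraction and secreted signals were among those higher in BAT relative to vWAT. Ctgf (chr10:24595442-24598683), a matricellular protein and target of YAP, was at 71.6, 57.3 and 86.5 FPKM in BAT siCtrl, 175, 213 and 193 in BAT siH19, 47.7, 52.5 and 36.4 in vWAT siCtrl and 43.9, 55.5 and 45.1 in vWAT siH19. It rose in BAT without overlap, from siCtrl levels that already lay above all vWAT libraries, with an interaction of 1.35 (SE 0.24, adjusted p = 0.0064). Thbs1 (chr2:118111876-118127133), thrombospondin 1 of the matrix, was at 59.1, 42.96 and 57.4 FPKM in BAT siCtrl, 148, 166 and 115 in BAT siH19, 112, 113 and 109 in vWAT siCtrl and 111, 132 and 109 in vWAT siH19, and had an interaction of 1.34 (SE 0.20, adjusted p = 0.0034). The BAT groups did not overlap and the vWAT groups did. Cyr61, a relative of Ctgf, had an interaction of 0.82 (SE 0.13, adjusted p = 0.0039). Of 27 tested YAP and TEAD target genes, 8 were higher and 0 lower (29.6% called, against 10.5% of all tested genes). The count of higher genes was 5 without vWAT siCtrl replicate 3 or vWAT siH19 replicate 2.

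Matrix remodelling genes were higher in 59.3% of the members tested. Of 27 proteases, inhibitors and crosslinkers, 16 were higher and 0 lower, with a median interaction of 0.46. Lox, the collagen crosslinking lysyl oxidase, was at 287, 241 and 283 FPKM in BAT siCtrl, 587, 558 and 545 in BAT siH19, 537, 543 and 548 in vWAT siCtrl and 564, 615 and 559 in vWAT siH19. It rose in BAT to the vWAT level, the groups were apart in both depots, and the interaction was 0.97 (SE 0.09, adjusted p = 0.0014), with a vWAT difference of 0.09 (SE 0.06, adjusted p = 0.75). The protease inhibitors Timp3 and Timp1 had interactions of 1.03 (SE 0.22, adjusted p = 0.016) and 0.82 (SE 0.08, adjusted p = 0.0014). Of 33 matrix glycoproteins and proteoglycans, 9 were higher, and 5 without BAT siCtrl replicate 2, vWAT siCtrl replicate 1 or vWAT siH19 replicate 1. Collagens moved less evenly: 5 of 23 were higher and 1, Col7a1, lower. Without any one of 8 of the 12 libraries 2 or 3 were higher (3 under quantile normalization), and the call of Col7a1 was lost without any one of 10. Itgav, the alpha v integrin chain, had an interaction of 1.14 (SE 0.21, adjusted p = 0.0078), and 5 of 18 integrins and cadherins were higher.

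Contractile genes had the largest positive BAT median of all lists. Acta2, smooth muscle alpha-actin, was at 249, 224 and 305 FPKM in BAT siCtrl, 514, 626 and 528 in BAT siH19, 435, 494 and 412 in vWAT siCtrl and 472, 566 and 464 in vWAT siH19. The BAT groups were apart and the vWAT groups overlapped, and the interaction was 0.94 (SE 0.18, adjusted p = 0.0085). Tagln, transgelin, had an interaction of 1.03 (SE 0.18, adjusted p = 0.0065), and Tpm2, beta-tropomyosin, one of 0.98 (SE 0.15, adjusted p = 0.0033). The list had 10 of 24 members higher and 0 lower, with medians of 0.76 in BAT and 0.14 in vWAT. Genes of the skeletal muscle lineage, with 25 tested, had none called and a median interaction of 0.32, while 5 were higher without BAT siCtrl replicate 1 and 2 without vWAT siH19 replicate 2.

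Precursor and stromal markers were higher in 9 of 21 tested members and lower in 0, with a median interaction of 0.44. This is 42.9% called, against 10.5% of all tested genes. Ly6a, the stem cell antigen SCA-1, was at 269, 239 and 248 FPKM in BAT siCtrl, 459.6, 434 and 473 in BAT siH19, 499.5, 523 and 582 in vWAT siCtrl and 648, 554 and 612 in vWAT siH19. The BAT groups were apart and the vWAT groups overlapped, and the interaction was 0.68 (SE 0.10, adjusted p = 0.0033). Pi16, of early fibroblast-like precursors, had one of 0.68 (SE 0.12, adjusted p = 0.0065). Pdgfra and Gata2, a receptor and a transcription factor of precursors, had interactions of 0.48 (SE 0.12, adjusted p = 0.036) and 0.66 (SE 0.16, adjusted p = 0.026), and these calls were lost without any one of 10 and 6 of the 12 libraries. Runx2 and Tgfb2, which the study also followed, were not called, with interactions of 0.94 (SE 0.28, adjusted p = 0.063) and 1.08 (SE 0.32, adjusted p = 0.058). The list count was 5 to 8 without single libraries, with 5 without vWAT siCtrl replicate 2. It was 6 under median-of-ratios scaling and 7 under quantile normalization.

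Secreted factors were among the largest positive interactions. Tslp, an epithelial and stromal cytokine, was at 2.77, 2.11 and 3.37 FPKM in BAT siCtrl, 10.9, 13.8 and 10.3 in BAT siH19, 0.454, 0.806 and 0.794 in vWAT siCtrl and 0.598, 1.09 and 0.453 in vWAT siH19, with an interaction of 1.75 (SE 0.25, adjusted p = 0.0027). The BAT siH19 libraries were above all other libraries, and the vWAT groups overlapped. In the TGF-beta and BMP pathway, 12 of 49 members were higher and 1 lower, the lower call being lost without any one of 6 libraries. Its ligand subunits Inhba and Inhbb had interactions of 1.05 (SE 0.14, adjusted p = 0.0027) and 1.10 (SE 0.12, adjusted p = 0.0014).

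Chemokines and cytokines were higher in 8 of 32 tested genes and lower in 0 (25% called, against 10.5% of all tested genes). Cxcl5, a neutrophil chemokine, was at 5.02, 3.68 and 4.503 FPKM in BAT siCtrl, 7.55, 7.81 and 8.204 in BAT siH19, 14.8, 15.6 and 16.6 in vWAT siCtrl and 8.91, 9.78 and 11.7 in vWAT siH19. It rose in BAT and lay lower in each vWAT siH19 library than in any vWAT siCtrl library, though the vWAT difference of -0.59 (SE 0.11, adjusted p = 0.13) was not called, and the interaction was 1.31 (SE 0.15, adjusted p = 0.0015). Cxcl14, a chemokine of stromal cells, was at 19.5, 19.5 and 21.96 FPKM in BAT siCtrl, 40.8, 37.5 and 40.1 in BAT siH19, 2.799, 2.61 and 2.302 in vWAT siCtrl and 1.65, 1.77 and 2.08 in vWAT siH19. Its groups too were apart in opposite directions, with a vWAT difference of -0.33 (SE 0.08, adjusted p = 0.22) and an interaction of 1.26 (SE 0.11, adjusted p = 0.0012). The monocyte chemokines Ccl7 and Ccl2 had interactions of 1.21 (SE 0.17, adjusted p = 0.0026) and 1.09 (SE 0.20, adjusted p = 0.008). No gene was called in opposite directions in the 2 depots.

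Hmga2, a chromatin protein of growing mesenchymal cells, was at 1.65, 1.3 and 1.896 FPKM in BAT siCtrl, 5.44, 6.68 and 5.09 in BAT siH19, 1.13, 1.29 and 0.917 in vWAT siCtrl and 0.677, 1.54 and 0.853 in vWAT siH19, with an interaction of 1.45 (SE 0.23, adjusted p = 0.0041). The BAT groups were apart and the vWAT groups overlapped. Of 49 genes of cell cycle and DNA replication, 8 were higher and 0 lower (16.3% called, against 10.5% of all tested genes). This count depends on scaling and on single libraries: 3 were higher and 1 lower under median-of-ratios scaling, 4 higher under quantile normalization and 2 to 5 without any one of 9 of the 12 libraries. Rrm2, a subunit of ribonucleotide reductase, had an interaction of 0.61 (SE 0.08, adjusted p = 0.0021). Ccnd1, cyclin D1, and Greb1, an oestrogen-responsive gene, had interactions of 1.25 (SE 0.30, adjusted p = 0.027) and 1.42 (SE 0.37, adjusted p = 0.035), calls that were lost without any one of 7 and 8 of the 12 libraries. Several genes of the largest positive interactions belong to none of the lists described. Kcnab1, a potassium channel subunit, had an interaction of 1.54 (SE 0.26, adjusted p = 0.0055) and Uchl1, a ubiquitin hydrolase, one of 1.80 (SE 0.39, adjusted p = 0.017). Arhgef4, a guanine nucleotide exchange factor, had the largest of all named interactions, 2.21 (SE 0.51, adjusted p = 0.022), with 0.714, 3.59 and 0.902 FPKM in vWAT siCtrl and 0.801, 2.28 and 0.783 in vWAT siH19, and lost its call without vWAT siH19 replicate 1 or 3. Prl2c2 and Prl2c3 are near-identical copies whose reads cannot be assigned with certainty, and their interactions of 1.47 and 1.55 are uncertain for that reason.

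Lists of stress and hormone responses had called members in both directions, except the thyroid hormone-responsive genes. Of 44 genes of the unfolded protein and ATF4 response, 13 were higher and 5 lower (11 and 8 under median-of-ratios scaling): Hyou1, a chaperone of the endoplasmic reticulum, had an interaction of 0.48 (SE 0.09, adjusted p = 0.011), and Asns and Trib3, both targets of ATF4, had -0.52 (SE 0.07, adjusted p = 0.0024) and -0.51 (SE 0.08, adjusted p = 0.0047). Of 29 Nrf2 genes, 9 were higher and 3 lower (7 and 7 under median-of-ratios scaling), with Nqo1, a quinone reductase, at 1.00 (SE 0.11, adjusted p = 0.0014); the list median of 0.01 turned to -0.06 under median-of-ratios scaling. Of 25 glucocorticoid-responsive genes, 9 were higher and 1 lower (6 and 2 under median-of-ratios scaling), and of 17 thyroid hormone-responsive genes, 0 were higher and 5 lower. Of 30 genes that respond to PPARG ligands, 2 were higher and 13 lower. Induction medium held a glucocorticoid and a PPARG ligand in both depots, and the later medium held the PPARG ligand for vWAT cells and thyroid hormone for BAT cells, whose part in these counts cannot be told apart from depot. The 77 cytosolic ribosomal proteins had 6 higher and 0 lower (7.79% called, against 10.5% of all genes), a count that was 1 higher and 1 lower under median-of-ratios scaling, 40 higher under quantile normalization and between 3 and 12 without single libraries. Within single depots, 60 of the 77 were called higher with siH19 in BAT (median difference 0.18). In vWAT 75 lay above 0 (median 0.085) and 0 were called. Of 33 proteasome subunits, 1 was lower (4 under median-of-ratios scaling and 0 under quantile normalization).

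The remaining lists are set against 7.02% of all tested genes higher and 3.52% lower. Angiogenic factors had 31.0% called, the insulin and IGF axis 22.2%, complement genes 19.2% and Wnt genes 18.8%. FGF to neurotrophin signalling, adrenergic and cAMP signalling, branched-chain catabolism and depot-origin factors had 12.5% to 15.6% called, near 10.5% of all genes. Under that share were interferon-stimulated genes (5.26%), solute carriers (4.76%) and Hox genes (3.70%). Of 29 angiogenic factors, 8 were higher and 1 lower, with 5 higher under either other scaling and 4 or 5 without any one of 5 libraries, and of 32 Wnt genes, 6 were higher, with 1 or 2 under the other scalings and 1 to 3 without any one of 11 libraries. Of 32 genes of FGF, HGF, EGF, PDGF and neurotrophin signalling, 5 were higher, and Hgf, hepatocyte growth factor, had an interaction of 0.48 (SE 0.08, adjusted p = 0.0045). The insulin and IGF axis had 3 of 18 higher and 1 lower, adrenergic and cAMP signalling 2 of 26 each way, and branched-chain amino acid catabolism 3 of 23 lower (8 under median-of-ratios scaling, and 5 without BAT siCtrl replicate 1 or BAT siH19 replicate 3). Of 38 interferon-stimulated genes, 1 was higher and 1 lower, and of 26 complement genes, 1 was higher and 4 lower. Hox genes had 1 of 27 higher, developmental transcription factors of depot origin 2 of 24 higher and 1 lower, and solute carriers 1 of 21 lower. The lone calls among the interferon-stimulated, Hox and depot-origin genes, of the higher complement gene and of the lower insulin axis gene were each lost without at least 1 library. Of 50 tested imprinted genes, which were kept out of the genes named here, 9 were higher and 2 lower.

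**Figure D4:**
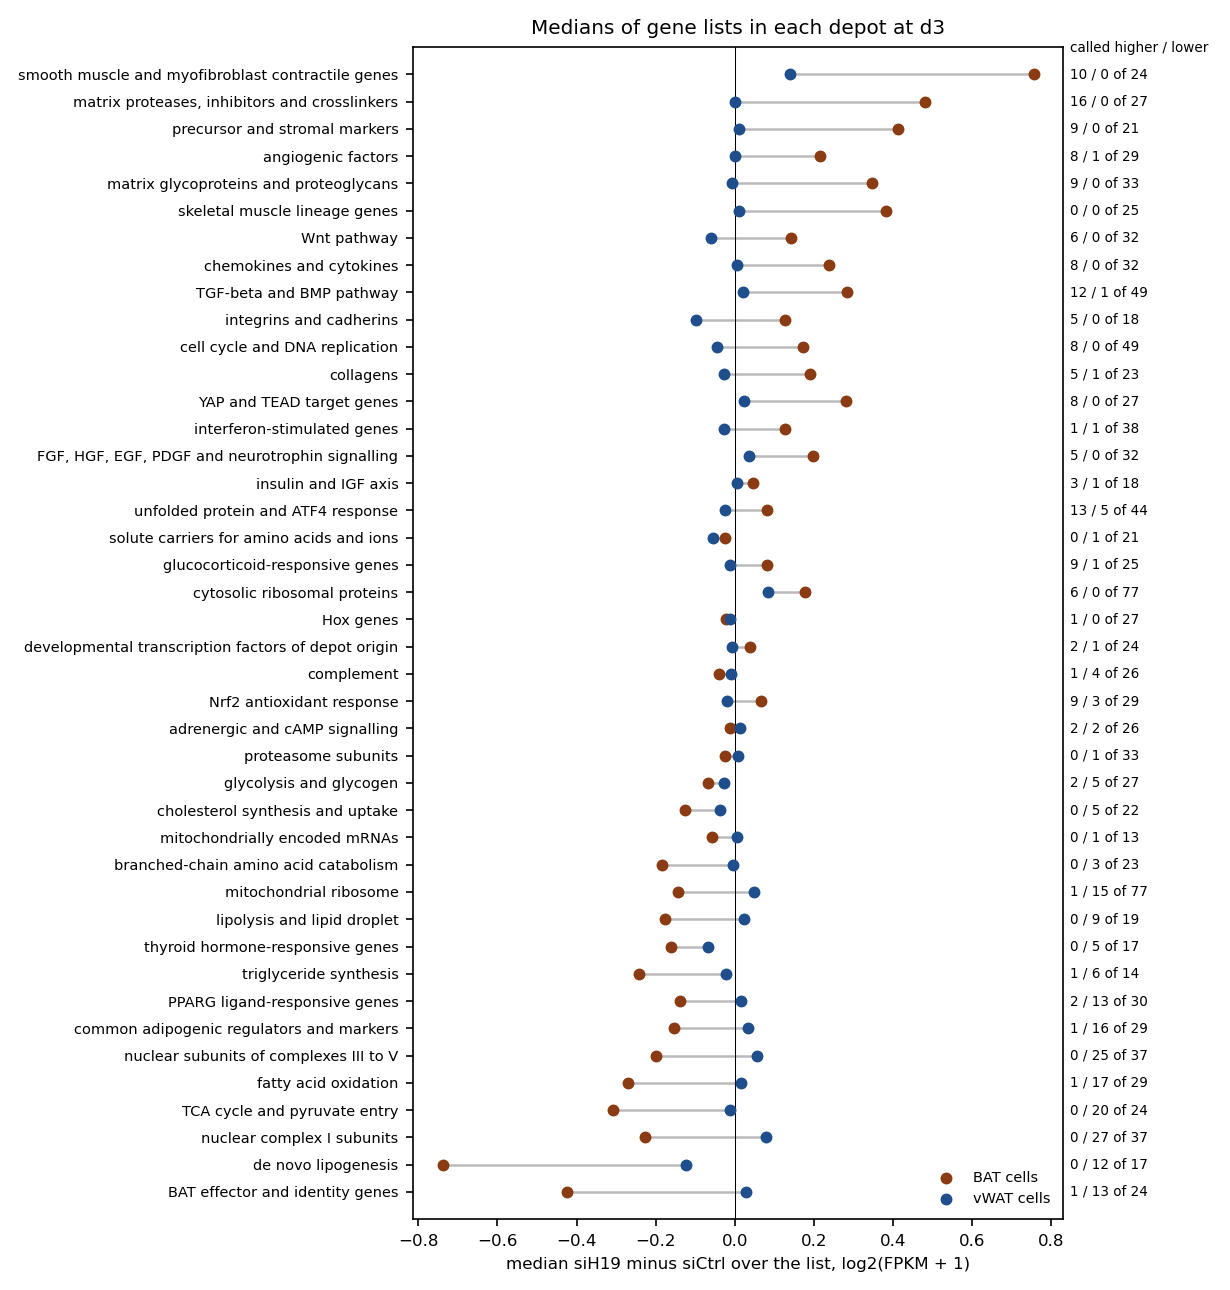
Points are the median siH19 minus siCtrl difference over the tested members of each gene list at d3, in log2(FPKM + 1), in BAT and in vWAT, with the number called higher and lower for the interaction at the right. The BAT medians run from -0.74 for de novo lipogenesis to 0.76 for contractile genes, while the vWAT medians stay between -0.12 and 0.14.

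Markers of other cell types moved with some of these groups. The libraries are bulk samples, in which fewer cells of a type and less RNA per cell cannot be told apart. All 16 macrophage markers were tested, 9 were lower and 0 higher, and their summed level was 169 to 203 FPKM in BAT siCtrl, 100 to 117 in BAT siH19, 694 to 755 in vWAT siCtrl and 767 to 874 in vWAT siH19. C1qa (chr4:136895917-136898803), a chain of complement C1q made by macrophages, was at 8.37, 9.04 and 7.83 FPKM in BAT siCtrl, 4.33, 2.66 and 3.66 in BAT siH19, 52.7, 55.2 and 54.5 in vWAT siCtrl and 64.8, 54.5 and 64.1 in vWAT siH19. It fell in BAT without overlap, its vWAT groups overlapped, and its interaction was -1.23 (SE 0.17, adjusted p = 0.0027). C1qb, C1qc and Lyz2, the last encoding a lysozyme of myeloid cells, had interactions of -0.96 (SE 0.16, adjusted p = 0.005), -0.89 (SE 0.08, adjusted p = 0.0014) and -0.93 (SE 0.13, adjusted p = 0.0024). Vsig4, a complement receptor of macrophages, had one of -1.02 (SE 0.20, adjusted p = 0.01) at means of 0.776 and 0.114 FPKM in BAT siCtrl and siH19. The chemokines Cxcl5, Cxcl14, Ccl7 and Ccl2 rose in BAT, in the same siH19 libraries in which these markers were lower.

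The other marker lists went in both directions, and several of their members also belong to lists described above. Of 12 adipocyte markers, 9 were lower (4 under quantile normalization and 5 without BAT siCtrl replicate 2), and their summed level was 41196 to 43126 FPKM in BAT siCtrl and 37033 to 39600 in BAT siH19, against 21292 to 22336 in vWAT siCtrl and 23348 to 24664 in vWAT siH19. Of 8 adipocyte precursor markers, 5 were higher (2 or 3 under the other scalings or without any one of 10 libraries), with a summed level of 391 to 431 FPKM in BAT siCtrl, 640 to 698 in BAT siH19, 827 to 894 in vWAT siCtrl and 898 to 996 in vWAT siH19. Ly6a, already counted among the precursor and stromal markers, gave most of the BAT rise of this sum. Of 7 tested pericyte and smooth muscle markers, 1 was higher, with sums of 310.2 to 389 FPKM in BAT siCtrl, 618 to 742 in BAT siH19, 476 to 567 in vWAT siCtrl and 538 to 654 in vWAT siH19. Acta2, given above with the contractile genes, made up most of each of these sums and most of the rise in BAT. None of the 10 tested skeletal muscle, 7 endothelial and 11 mesothelial markers was called, and 3 skeletal muscle markers were higher without BAT siCtrl replicate 1. Skeletal muscle markers summed to 104 to 135 FPKM in BAT siCtrl and 136 to 157 in BAT siH19, against 5.80 to 9.19 in vWAT, where Myod1, Myf5, Myog and Pax7 were listed at 0. Pax7 was under 0.1 FPKM in every BAT library at d3 too. None of the lymphocyte markers passed the filter, with sums of at most 1.64 FPKM and Cd3g at 0 in every library, and erythroid markers summed to at most 2.13 FPKM. The part of these cell types in the interaction was not tested.

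**Figure D5:**
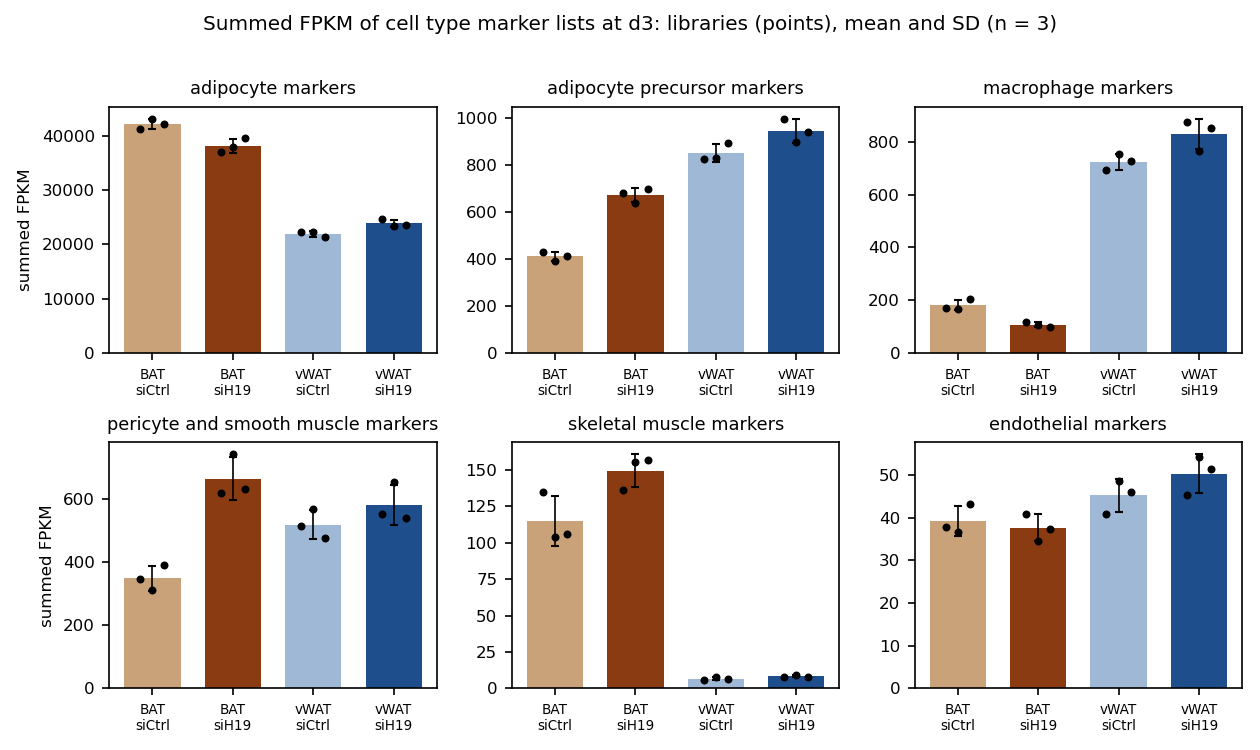
Bars are the mean summed FPKM of 6 cell type marker lists at d3 by depot and siRNA, each axis from 0, with the SD and the 3 libraries as points. Precursor markers sum to 391 to 431 in BAT with siCtrl and to 640 to 698 with siH19, macrophage markers to 169 to 203 and to 100 to 117, and the vWAT macrophage sum is several times the BAT sum. Most of the pericyte and smooth muscle sum is Acta2, and most of the BAT rise of the precursor sum is Ly6a.

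A few genes were called within both depots. Besides H19, 4 genes were called in the same direction in both and not for the interaction. Tlcd2 was at 83.05, 92.6 and 93.8 FPKM in BAT siCtrl, 50.9, 55.8 and 54.7 in BAT siH19, 142, 153 and 137 in vWAT siCtrl and 106, 91.6 and 98.2 in vWAT siH19, with differences of -0.73 in BAT and -0.54 in vWAT. Phospho1 and Gpcpd1, which release phosphate from phosphocholine and choline-containing headgroups from glycerophosphocholine, fell by 0.56 and 0.28 in BAT and by 0.52 and 0.32 in vWAT. Wisp2, a secreted Wnt-related protein of precursors, rose by 0.39 in BAT and 0.51 in vWAT. The 95% intervals of their interactions ran from -0.40 to 0.03 for Tlcd2, -0.27 to 0.18 for Phospho1, -0.08 to 0.17 for Gpcpd1 and -0.33 to 0.08 for Wisp2, so that differences between the depots of these sizes cannot be set aside. Fam234a, named after its values were seen, was the sixth vWAT call: it rose from 57.8 to 75.6 FPKM in vWAT and had means of 57.1 and 56.8 FPKM in BAT, with an interaction of -0.39 (SE 0.07, adjusted p = 0.0070).

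The same interaction at d0, in 12 other libraries taken before differentiation, gives the values before d3. Within single depots at d0, 743 genes were called in BAT (5.42%) and 576 in vWAT (4.2%). For the interaction at d0, 140 of 13708 genes were called (1.02%), 62 higher and 78 lower, and 1823 had an unadjusted p under 0.05; 35 to 83 genes were called without any one of 11 of these 12 libraries. Of the 966 genes higher at d3, 954 were tested at d0 and 508 of them (53.2%) lay above 0 there, against 50.9% of all genes tested on both days. Of the 485 genes lower at d3, 454 were tested at d0 and 213 (46.9%) lay below 0, against 49.1%. The test of the difference between the days, chosen after the data were seen and fitted on all 24 libraries, called 1008 genes (7.32%), 754 with a more positive and 254 with a more negative interaction at d3 than at d0. H19 had an interaction of -2.07 (SE 0.32, adjusted p = 0.021) at d0, where 3.35% remained in BAT and 10.3% in vWAT, and the day difference was 2.11 (SE 0.42, adjusted p = 0.0041).

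Named genes fell on both sides of this test. The day difference was -1.92 (SE 0.23, adjusted p = 0.00015) for Thrsp, -1.12 (SE 0.22, adjusted p = 0.0042) for Fasn, -0.90 (SE 0.15, adjusted p = 0.001) for Elovl3, 1.81 (SE 0.26, adjusted p = 0.00038) for Ctgf, 1.06 (SE 0.11, adjusted p = 2.3e-05) for Lox and 1.53 (SE 0.22, adjusted p = 0.00035) for Cxcl5. At d0 the interaction was 0.24 for Thrsp, 0.32 for Fasn, -0.09 for Lox and -0.22 for Cxcl5, none of them called, and for Ctgf it was called in the opposite direction to d3, at -0.47 (SE 0.08, adjusted p = 0.027). Elovl3 did not pass the filter at d0. For C1qa the d0 interaction was -1.06 (SE 0.20, adjusted p = 0.04) and the day difference -0.17 (SE 0.28, adjusted p = 0.80), and for Nqo1 they were 1.08 (SE 0.12, adjusted p = 0.0069) and -0.07 (SE 0.16, adjusted p = 0.87). Both genes were called for the interaction on both days and not for its difference between the days. For Ppargc1a, Cox7a1 and Car3 the day difference was not called, at -0.72, -0.47 and -0.23.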

How the data were processed

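RNA was sequenced from primary cells of 4 groups at d3 (3 libraries each), and groups were taken from the sample labels, where control libraries carry the letters siKO. The authors deposited one table of expression values with no read counts and no named unit, and the values were taken as FPKM from the study's description and the column sums of 800852 to 841456. Per the labels, reads were processed with FastQC 0.10.1, TopHat2 2.0.10, Cufflinks 2.2.1, STAR and DESeq2 on GRCm38.p5, while the study's methods name another Cufflinks version and another read length. FPKM are relative to the library, so that a rise in abundant genes lowers all others. The fragments per library are unknown, so no counting intervals or floors can be given, and an exact 0 can be a failed estimate, which is written as listed at 0.

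The values were transformed to log2(FPKM + 1), and one limma 3.58.1 model (R 4.3.3, moderated statistics with a trend on mean level) was fitted to the 12 d3 libraries for genes at 1 FPKM or more in at least 3 of them, with 8 residual degrees of freedom. The script was tested on simulated data. The 12 d0 libraries were fitted alike, and the test of the difference between days used all 24. Names came from the table for 20695 genes and from GENCODE M21 for 28503, and 254 had none. Gene coordinates are those of the deposited table. H19 transcripts and the coordinates of the siRNA sites are from GENCODE M21, and siRNA sequences from the study's supplementary list of oligonucleotides. No column was left out (0 columns). The genes named are H19, markers the study names, the 15 called genes with the largest interaction each way with a gene name, outside the imprinted list and at 1 FPKM or more in a group mean, genes called in both depots, and up to 6 called members of each list. A few items that this rule or the lists include are not reported here. The members and gene lists were chosen with earlier results of these data known. Alternatives were another pseudocount (0.1 or 5), filter, scaling, spread estimate, replicate block, a minimum of 1.3-fold, and leaving out each library. No gene set test was run.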

Additional observations from a re-analysis of the deposited data

Results flagged for a closer look

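At d3, 1451 genes differed between BAT and vWAT cells in the siH19 difference, at d0 140 genes did, and for 1008 genes the interaction differed between d3 and d0, each by the test of the difference itself in limma (Benjamini-Hochberg adjusted p under 0.05). The named genes with the largest such differences at d3 are given here by their interactions in log2(FPKM + 1).

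Lower in BAT relative to vWAT were Cidea (-1.89), Ucp1 (-1.75), Thrsp (-1.68), Pck1 (-1.56), Cox8b (-1.33), Neat1 (-1.26), C1qa (-1.23), Tmem45b (-1.19), Ppargc1a (-1.15), Plbd1 (-1.13), Nat8l (-1.12), Lyrm9 (-1.10), Cyp2e1 (-1.03), Laptm5 (-1.03) and Vsig4 (-1.02). Plbd1, a phospholipase B-like protein, was at 53.01, 43.7 and 64.01 FPKM in BAT siCtrl, 32.4, 30.7 and 37.3 in BAT siH19, 21.9, 23.8 and 18.6 in vWAT siCtrl and 27.9, 26.2 and 37.3 in vWAT siH19. Its groups were apart in opposite directions in the 2 depots, and its vWAT difference of 0.48 (SE 0.16, adjusted p = 0.43) was not called. Laptm5, a lysosomal protein of blood cells, Cyp2e1, a microsomal oxidase, and Lyrm9 lost their calls without any one of 7, 4 and 8 of the 12 libraries.

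Higher in BAT relative to vWAT were Arhgef4 (2.21), Uchl1 (1.80), Tslp (1.75), Prl2c3 (1.55), Kcnab1 (1.54), Prl2c2 (1.47), Hmga2 (1.45), Greb1 (1.42), Ctgf (1.35), Thbs1 (1.34), Cxcl5 (1.31), Cxcl14 (1.26), Ccnd1 (1.25) and Scarletltr (1.22). Kcnab1 was at 1.76, 1.34 and 2.802 FPKM in BAT siCtrl, 6.73, 6.53 and 5.56 in BAT siH19, 4.48, 4.29 and 4.45 in vWAT siCtrl and 4.78, 3.64 and 2.75 in vWAT siH19, apart in BAT and overlapping in vWAT. Uchl1 was at 5.48, 2.68 and 3.54 FPKM in BAT siCtrl, 15.1, 12.3 and 12.99 in BAT siH19, 10.02, 23.9 and 19.4 in vWAT siCtrl and 12.6, 14.9 and 15.9 in vWAT siH19, so that the BAT siH19 libraries lay within the vWAT range. Scarletltr, a long non-coding RNA, lost its call without any one of 8 of the 12 libraries.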

How the results depend on the processing

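The number of genes called for the interaction at d3 stayed within 1.5 times of 1451 under every other pseudocount, filter, scaling and spread estimate tried (1037 to 1713), fell to 924 with a minimum of 1.3-fold, and ranged from 889 to 1432 without single libraries. For BAT alone it fell from 2833 to 1241 with that minimum. For vWAT it was 20 with a pseudocount of 5, 10 under median-of-ratios scaling, 13 under quantile normalization or with array weights, 1 without the filter or without the trend, and 1 to 8 without single libraries. At d0 it was 85 without the filter, 84 without the trend, 305 with the spread of all 24 libraries, and 35 to 110 without single libraries. The H19 interaction of 0.04 was -1.05 with a pseudocount of 5, -0.061 under median-of-ratios scaling and -0.11 to 0.23 without single libraries. That of Gpcpd1 turned to -0.026 under median-of-ratios scaling, and without single libraries those of Dio2 ranged from -1.24 to 0.51 and of Phospho1 from -0.099 to 0.035. Of 211 called named genes, 145 kept the call without every single library, 66 lost it without at least 1, and 0 changed direction; over the other settings, 1903 of 2106 values kept it. The cause of these shifts was not tested.

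The replicate number is shared across groups in the labels. Deviations of same-numbered libraries at d3 had correlations of -0.14 to 0.05, so the libraries share a number and no pairing was seen. With the number as a replicate block, 1041 genes were called for the interaction at d3, 2368 in BAT, 1 in vWAT and 32 for the interaction at d0, and 39 of the 211 named calls were lost. The number of fragments is unknown, which limits genes near 1 FPKM most.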

Other observations

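The d0 interaction, outside the main comparison, had its own leading genes, chosen after their values were seen. Il11, a cytokine of stromal cells, was at 14.1, 13.9 and 13.6 FPKM in the BAT siCtrl libraries at d0, 34.3, 29.5 and 26.2 in BAT siH19, 110.3, 150.4 and 144 in vWAT siCtrl and 42.8, 71.7 and 84.97 in vWAT siH19. It rose in BAT and fell in vWAT without overlap in either, with an interaction of 2.102 (SE 0.30, adjusted p = 0.014). Xaf1, an interferon-induced gene, was at 9.24, 10.6 and 8.74 FPKM in BAT siCtrl, 4.25, 4.98 and 4.12 in BAT siH19, 8.65, 14.3 and 8.77 in vWAT siCtrl and 18.5, 30.4 and 15.6 in vWAT siH19, with an interaction of -1.89 (SE 0.33, adjusted p = 0.032). It fell in BAT, and its vWAT difference of 0.94 had an adjusted p of 0.051. The list of interferon-stimulated genes had a median d0 interaction of -0.81, against 0.19 at d3. For the complement list these medians were -0.47 and 0.04, the latter turning to -0.01 under either other scaling. Cxcl12, a chemokine of precursors, was at 342, 326 and 350.3 FPKM in BAT siCtrl, 161, 189.9 and 184 in BAT siH19, 186, 169 and 178 in vWAT siCtrl and 177, 183 and 202 in vWAT siH19 at d0, and the BAT groups were apart while the vWAT groups overlapped.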
